A study of Mus musculus with 14 samples.

Results

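In mouse kidney, 892 distal regions carried a peak of H3K9cr or of H3K9ac in every one of the 14 ChIP-seq libraries, so that both marks were called there in control and obstructed (UUO) kidneys of both genotypes. They were chosen by the measured presence of peaks: the autosomal peaks of all 14 lists were pooled, overlapping peaks were merged into 78649 regions, and a region was kept when it held a peak of each list and did not overlap the 3 kb either side of any RefSeq gene end (GRCm38.p6). Of the merged regions, 48311 were distal in this sense, and 1.85% of these had a peak in all 14 libraries, against 31.5% of the 30338 regions at gene ends. The presence of both marks in all groups is therefore the selection and not a result, and only lengths, positions, annotation and sequence are described as findings.

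Acetylation (H3K9ac) and crotonylation (H3K9cr) sit on the same lysine of histone H3, so that 1 histone tail carries either of them and a region with both holds a mixture of tails, alleles or cells. ACSS2, an enzyme that joins short fatty acids to coenzyme A, makes acetyl-CoA and crotonyl-CoA from the free acids, and acetyltransferases such as p300 and CBP use them to modify histones. Both marks are known from active promoters and enhancers. Many genes have further promoters inside the gene body, from which shorter transcripts start, and such internal starts can lie far from either end of a gene.

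Kidneys came from WT mice and from mice with a whole-body ACSS2 knockout (ACSS2-/-), each with a control and a UUO group, which makes 4 groups, all of the C57BL/6J strain and 6 to 8 weeks old at use. In UUO (unilateral ureteric obstruction) the left ureter is tied and cut, which leads to fibrosis of that kidney, and the tissue is a mixture of all cells of the kidney. There were 2 H3K9cr libraries per group, whereas H3K9ac was profiled in 2 libraries per genotype after UUO but in only 1 per genotype without it. Nothing in the sources used here states whether the libraries of a group came from separate animals, so a p-value measures the spread between these libraries, which may be technical. With 1 library per group, the spread of control H3K9ac was not measured. Tests that use these groups take it from the groups with 2 libraries, most of them H3K9cr. Both marks were profiled from the same samples according to the study, so that libraries of different marks can share an animal. An H3K9cr list held 27530 to 45014 peaks and an H3K9ac list 15988 to 32760. The lists hold positions only, so the read depth is unknown, and all values below are lengths in bp that passed the authors' threshold. The number after the condition in the peak names differed from the replicate number of the label in 4 of the 14 lists. Whether it stands for an animal is not stated. No peak on chromosome Y was held by 6 lists. In ACSS2-/- UUO, the lists with number 3 in the peak names had 14 (H3K9cr) and 13 (H3K9ac) such peaks. Those with number 2 had 0 in both marks. Chromosome Y peaks there went with the number in the peak names and not with the replicate label. What this reflects was not tested. The labels give a different antibody catalogue number for each group, whereas the study names 1 antibody for each mark. The sources used here do not settle which holds.

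The 892 regions were between 799 and 33859 bp wide, with a median of 2934.5 bp, and lay a median of 10017 bp from the nearest gene end. By mean covered length over the libraries, the length within a region that peaks of 1 library cover, they ranged from 558 to 20009 bp with a median of 1716 bp. Of these regions, 740 (83.0%) lay inside a gene body and 714 (80.0%) inside that of a protein-coding gene, against 70.8% and 65.4% of all distal regions. The other 152 lay between genes. In 801 regions (89.8%) at least 1 bp was covered in every library, and this common core had a median length of 565 bp over all 892. In the other 91 no bp was covered in every library, for which the peak of 1 library apart from the rest is enough. Of the bp of a region covered in any H3K9ac library, a median of 96.4% was covered in any H3K9cr library. The reverse share was 88.9%. At gene-end regions with a peak in all 14 libraries these medians were 90.2% and 93.0%. The H3K9cr cover pools 8 libraries and the H3K9ac cover 6, with fewer peaks per list in most of them, and the part of this in the shares was not tested. The regions named 813 genes as host or nearest gene, 64 of them with 2 or more regions, and Dab2ip, which encodes a GTPase-activating protein, had the most with 4.

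At the edge of the rule, the smallest covered length in any library was 298 bp in a region of Mpv17l (chr16:13939870-13942676), 300 bp in one of Pik3c3 and 301 bp in one of Dusp4 (chr8:34813572-34816568). Just outside it, regions of Zbtb16, Snx29 and Tns1 with mean covered lengths of 7897, 6880 and 5784 bp had no peak in 1 of the 4 H3K9ac UUO libraries. Among the 331 distal regions with a peak in 13 of the 14 libraries, the missing library was WT UUO H3K9ac replicate 1 in 126, ACSS2-/- UUO H3K9ac replicate 1 in 117 and WT UUO H3K9ac replicate 2 in 53. The number that passed the rule was thus set largely by these lists, and it rose from 892 to 1018, 1009 and 945 when each of them in turn was left out.

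Although gene ends were kept out, 386 of the 892 regions (43.3%) held an annotated transcription start inside a gene, taken as the first base of a RefSeq start window that covers 250 bases before and 50 after each start. This was the case in 14.5% of the 331 distal regions with a peak in 13 libraries, which were of similar width with a median of 2705 bp, and in 1.68% of all distal regions. Among 296 distal regions with a peak in all 8 H3K9cr libraries and no H3K9ac library, it was 0.676%. Seen from the starts, 461 of the 2910 autosomal starts more than 3 kb from a gene end (15.8%) lay in one of the 892 regions, 732 in another region and 1717 (59.0%) in none. The annotation was not used to choose the regions beyond gene ends, but the share is a description and was not tested, since regions share genes and starts share regions.

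The sequence around the internal starts differed with the marks, and the windows below are shown as examples of starts rich and poor in CG pairs. In 461 windows of the 892 regions the GC content had a median of 61.7%, and the CpG ratio, the number of CG pairs over that expected from the C and G content, a median of 0.72 with quartiles of 0.54 and 0.89. In internal starts within other regions the medians were 54.5% and 0.36, and in internal starts without a region 47.3% and 0.21. The windows of gene-end starts in regions with a peak in all 14 libraries had medians of 62.3% and 0.80. A ratio of 0.6 or more was found in 68.5% of the internal windows of the 892 regions, 28.4% of those in other regions, 5.24% of those in none, and 78.4% of those at such gene ends.

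Slc4a4, which encodes the sodium bicarbonate cotransporter of the proximal tubule's basolateral membrane, held both kinds of start. The window of its start at base 88887260 of chromosome 5 (GRCm38, plus strand, chr5:88887010-88887309) has 50 CG pairs and a CpG ratio of 1.06, and that at base 89027966 (chr5:89027716-89028015) has 3 pairs and a ratio of 0.18. The internal start of Runx1, a transcription factor of blood cell development, lies at base 92697329 of chromosome 16 (minus strand, chr16:92697280-92697579) and has 35 pairs and a ratio of 1.01. The RefSeq sequences of the 3 windows follow from 5′ to 3′ on the strand of the gene, with CG pairs in capitals.
Slc4a4, CpG-rich start: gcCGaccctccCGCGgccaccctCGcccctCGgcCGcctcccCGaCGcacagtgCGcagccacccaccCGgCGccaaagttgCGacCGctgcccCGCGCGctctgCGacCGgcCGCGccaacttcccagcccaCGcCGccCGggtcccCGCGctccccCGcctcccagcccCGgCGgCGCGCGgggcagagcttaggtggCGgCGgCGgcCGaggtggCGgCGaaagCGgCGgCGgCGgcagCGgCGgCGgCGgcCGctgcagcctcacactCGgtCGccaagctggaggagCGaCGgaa
Slc4a4, CpG-poor start: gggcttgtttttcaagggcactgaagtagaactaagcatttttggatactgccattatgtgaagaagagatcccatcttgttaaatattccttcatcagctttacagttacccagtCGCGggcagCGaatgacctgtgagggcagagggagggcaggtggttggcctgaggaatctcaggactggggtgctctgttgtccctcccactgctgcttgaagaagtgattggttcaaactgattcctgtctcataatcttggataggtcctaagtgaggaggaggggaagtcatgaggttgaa
Runx1, internal start: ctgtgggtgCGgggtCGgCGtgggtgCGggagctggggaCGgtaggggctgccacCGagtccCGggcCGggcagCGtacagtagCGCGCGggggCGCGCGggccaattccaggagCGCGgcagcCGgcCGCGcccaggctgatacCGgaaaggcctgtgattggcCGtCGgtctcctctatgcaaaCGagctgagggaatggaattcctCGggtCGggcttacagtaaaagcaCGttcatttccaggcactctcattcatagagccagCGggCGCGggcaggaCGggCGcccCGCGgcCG

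Motifs were searched in the windows as letters on both strands. CCGGAAGT, a site of ETS factors, was found in 6.94% of the internal windows of the 892 regions, 9.40% of the gene-end windows in regions with all 14 libraries, 0.524% of the internal windows outside any region and 3.95% of all 31365 windows. GTTAAT, the core letters of an HNF1 site, was found in 3.04% of the windows of the 892 regions and 8.74% of the internal windows outside any region, against 7.12% of all. TTGGCA, the core letters of an NF1 site, was found in 10.2%, 15.6% and 14.1% of the same sets, and TGANTCA, the AP-1 site, in 6.07%, 9.67% and 7.85%. CAAAGTCCA (HNF4) and TCAAGGTCA (ERR) were each found in 1 of the 461 windows, 0.217%, against 0.488% and 0.418% of all. In the 732 internal windows within other regions, the shares were 1.91% for the ETS, 8.06% for the HNF1 and 16.1% for the NF1 letters. They were 8.33% for AP-1, 1.37% for HNF4 (10 windows) and 0.273% for ERR (2 windows). The GC content of the sets differed as given above, its part in these shares was not tested, and the shares themselves were not tested. The windows of Srsf11 (chr3:158031699-158031998, minus strand), Slc7a7 (chr14:54409423-54409722, minus strand) and Vav3 (chr3:109573757-109574056, plus strand) are shown as members whose lengths are described below, with the motif letters in capitals: an ETS site in the first, NF1 and HNF1 letters in the second and an AP-1 site in the last.
Srsf11: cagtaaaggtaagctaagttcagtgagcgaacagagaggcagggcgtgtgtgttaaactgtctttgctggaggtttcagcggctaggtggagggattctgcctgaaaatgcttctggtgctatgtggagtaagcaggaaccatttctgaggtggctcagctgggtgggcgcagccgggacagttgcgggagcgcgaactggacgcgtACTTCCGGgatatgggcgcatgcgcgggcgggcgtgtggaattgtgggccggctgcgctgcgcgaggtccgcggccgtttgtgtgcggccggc
Slc7a7: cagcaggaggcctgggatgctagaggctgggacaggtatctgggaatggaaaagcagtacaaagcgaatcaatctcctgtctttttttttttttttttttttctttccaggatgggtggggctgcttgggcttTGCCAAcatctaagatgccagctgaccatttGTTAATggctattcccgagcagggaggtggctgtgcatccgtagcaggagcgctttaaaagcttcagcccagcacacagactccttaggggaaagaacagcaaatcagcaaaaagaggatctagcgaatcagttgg
Vav3: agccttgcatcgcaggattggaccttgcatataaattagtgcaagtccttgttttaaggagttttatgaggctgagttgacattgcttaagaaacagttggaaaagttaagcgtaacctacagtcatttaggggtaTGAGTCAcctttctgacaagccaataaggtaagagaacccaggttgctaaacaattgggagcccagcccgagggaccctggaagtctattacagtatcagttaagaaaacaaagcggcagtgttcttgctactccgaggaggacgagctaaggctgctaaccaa

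**Figure D1:**
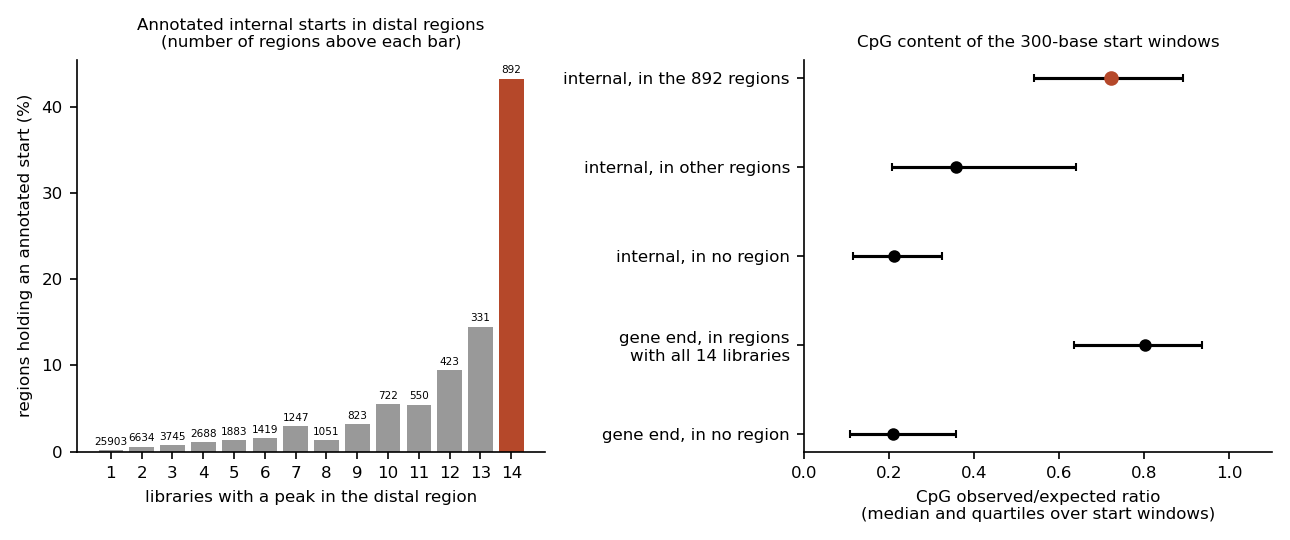
Left, percent of distal regions holding an annotated internal start, by the number of libraries (of 14) with a peak in the region, with the number of regions above each bar. Right, CpG observed/expected ratio of the start windows by position, as median (point) and quartiles (lines). The share with a start reached 43.3% in the 892 regions, and the CpG ratio of their windows (median 0.72) lay next to that of gene ends in regions with all 14 libraries (0.80).

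Around the internal starts the cover was oriented along the gene. Over the 327 regions with a single start, peaks of each library covered most regions 100 to 300 bp downstream of the start, where 94.5% to 98.8% of them were covered in the H3K9cr libraries and 88.4% to 98.8% in the H3K9ac libraries. At 1 kb downstream, H3K9cr covered 52.9% to 64.5% of them in the 4 control libraries and 40.7% to 56.6% in the 4 UUO libraries. At 1 kb upstream it covered 20.8% to 34.6% and 14.1% to 24.5%. H3K9ac covered 69.7% and 78.6% at 1 kb downstream in the 2 control libraries and 43.7% to 69.4% in the 4 UUO libraries, and upstream 17.4% and 31.2%, and 6.73% to 12.2%. In all 14 libraries cover was thus more frequent downstream than upstream at this distance. These shares were not centred on the median length of each library. With the centring used below, the median log2 difference between UUO and control over the 386 regions with a start was -0.016 for H3K9cr and -0.023 for H3K9ac. At 437 core centres of the regions without an annotated start, oriented along the chromosome, the shares at 1 kb on either side were close to each other, from 13.5% to 48.7% to the left and from 11.9% to 47.8% to the right.

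**Figure D2:**
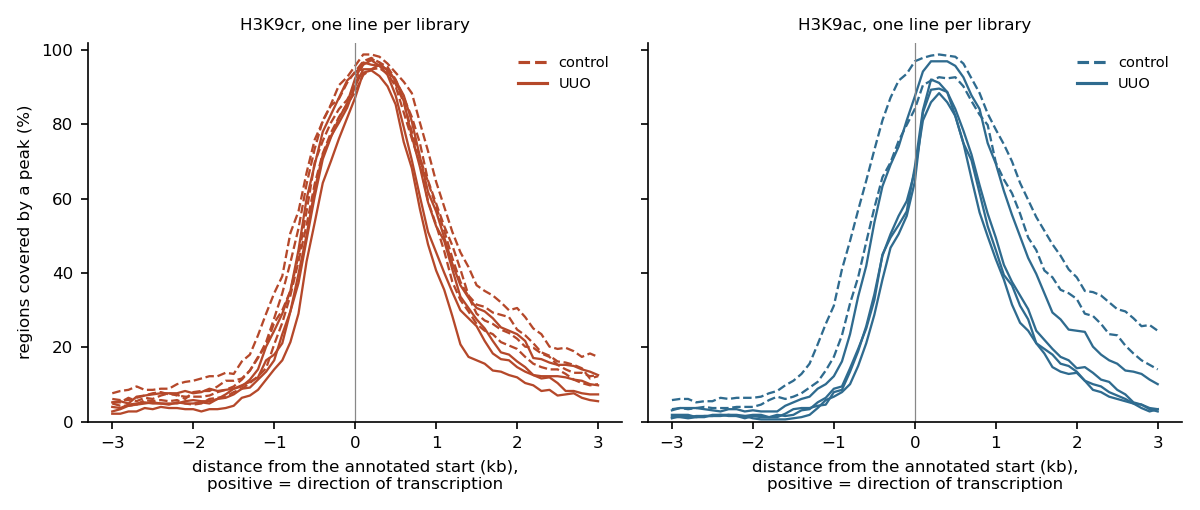
Percent of the 327 regions with a single annotated internal start that a peak covers (y axis), by distance from the start in kb (x axis, positive in the direction of transcription), one line per library, H3K9cr left and H3K9ac right, control dashed and UUO solid. Every line peaks 100 to 300 bp downstream of the start and falls more slowly downstream than upstream.

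The marks differed in how far they extended. In 669 of the 892 regions (75%) the mean covered length of H3K9cr was larger than that of H3K9ac. These means were not centred, and 4 of the 6 H3K9ac libraries but 4 of the 8 H3K9cr libraries were from UUO. The same count was not made over gene-end regions, so this share cannot be called particular to the 892. To compare lists of different lengths, the median over the 892 regions was divided by the median over the 9545 gene-end regions with a peak in all 14 libraries, within each library. This ratio was 0.967 to 1.05 in the 8 H3K9cr libraries and 0.768 to 0.894 in the 6 H3K9ac libraries, so that the marks did not overlap. The division does not remove list size. H3K9ac lists of 15988, 17271 and 18580 peaks had 0.778, 0.768 and 0.792, and those of 25585 and 32760 peaks 0.894. The smallest H3K9cr list, of 27530 peaks, had 0.967. The part of list size in the difference between the marks was not tested. The ratio depended on the kind of region. In regions with an annotated start it was 0.952 to 1.03 for H3K9cr and 0.902 to 0.985 for H3K9ac, where the ranges overlapped. In the 506 regions without one it was 0.977 to 1.07 and 0.628 to 0.822, and in the 152 regions between genes 0.852 to 0.970 and 0.499 to 0.672, without overlap. Between genes, the median covered length was 1327.5 to 1912 bp in the H3K9cr libraries and 721 to 1630.5 bp in the H3K9ac libraries.

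**Figure D3:**
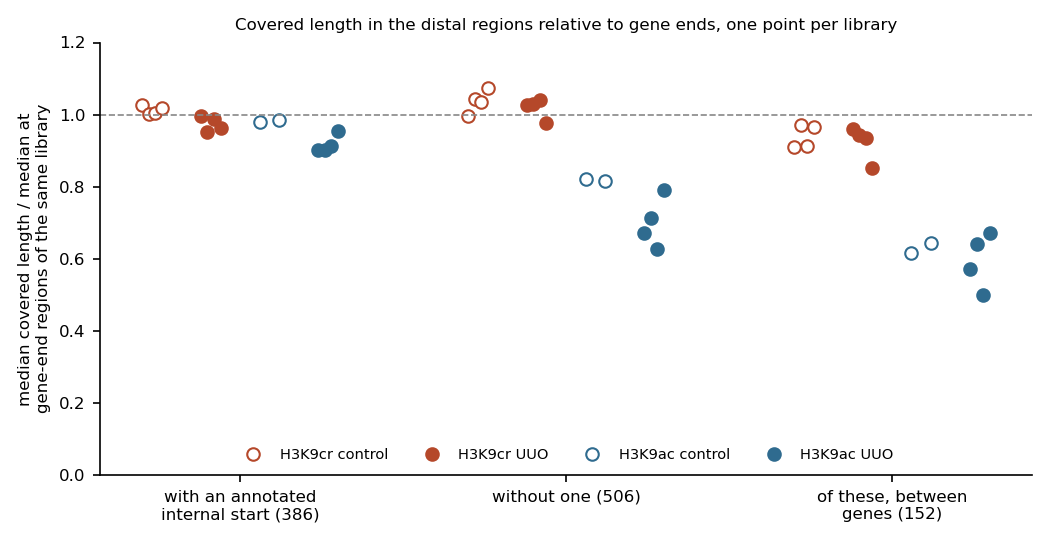
Median covered length of the distal regions divided by the median of gene-end regions of the same library (y axis), for regions with an annotated internal start, without one, and the part of the latter between genes. Each point is a library, H3K9cr red and H3K9ac blue, control open and UUO filled, and the dashed line marks equal length. H3K9ac (0.628 to 0.822) and H3K9cr (0.977 to 1.07) stand apart in the regions without an annotated start and overlap in those with one.

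Lengths were then tested region by region with limma, on log2 covered length centred on the median of each library, over all 10437 regions with a peak in all 14 libraries, at the gene ends as well as distal. A log2 difference below is of these centred lengths, with its SE, and p-values were adjusted over all 10437. Since a region had to be called in every library, one that lost its peak in a group is not among them. Averaged over the groups, H3K9cr was longer than H3K9ac in 230 of the 892 regions (25.8%) and shorter in 23 (2.58%), where the background over all tested regions was 11.4% longer and 7.19% shorter. The median difference over the 892 was 0.20, against 0.02 over all. H3K9cr was longer in 180 of the 506 regions without an annotated start (35.6%) and in 76 of the 152 between genes (50%), against 50 of the 386 with a start (13%). It was shorter in 15 regions with a start (3.89%) and 8 without (1.58%). Without median centring, 138 were longer and 11 shorter. The fit treats the libraries as independent. One that allows a correlation between libraries of the same genotype, condition and number in the peak names called 270 longer and 26 shorter. That correlation was estimated at 0.14.

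The largest difference in favour of H3K9cr lay between genes. Near Gm40630 (chr10:42087112-42095226), in a region with no bp covered in all 14 libraries, the H3K9cr length was 6580 and 4503 bp in WT control, 7935 and 7288 bp in ACSS2-/- control, 6213 and 3911 bp in WT UUO and 4981 and 4761 bp in ACSS2-/- UUO kidneys. The H3K9ac length was 844 and 3379 bp in the control libraries and 312 to 669 bp in the UUO libraries, below every H3K9cr value, for a log2 difference of 2.78 ± 0.16 (adjusted p = 6.72e-06). Regions between genes near Fam229a (chr4:129498787-129501684) and Gm23057 (chr9:72638987-72642058) had log2 differences of 1.66 ± 0.12 and 1.22 ± 0.09. Inside Ppara, the receptor that controls genes of fatty acid oxidation, the region chr15:85770364-85778542 had a mean of 3911 bp of H3K9cr and 932 bp of H3K9ac (log2 difference 2.19 ± 0.16, adjusted p = 2.99e-05). Its H3K9ac length was 720 and 3187 bp in the control and 341 to 510 bp in the UUO libraries.

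H3K9ac was the longer mark at the internal starts of Hnrnpf, Rnf44 and Srsf11. The region of Hnrnpf (chr6:117915416-117922226), whose protein binds RNA and takes part in splicing, had 5764 and 6413 bp of H3K9ac in the control libraries and 2431 to 4934 bp in the UUO libraries. H3K9cr covered 1775 to 2600 bp in the 8 libraries, a log2 difference of -1.04 ± 0.08 (adjusted p = 4.91e-05). The regions of Rnf44, a RING finger protein, and Srsf11, a splicing factor, differed by -0.57 ± 0.09 and -0.59 ± 0.11. At Srsf11, whose window is shown above, H3K9cr was 1029 to 1682 bp and H3K9ac 1395 to 2682 bp over all groups.

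UUO was compared with control for each mark, over both genotypes. H3K9cr was longer in 19 of the 892 regions and shorter in 49 (2.13% and 5.49%), against a background of 1.61% longer and 3.52% shorter. H3K9ac, with 1 control library per genotype, was longer in 5 and shorter in 64 (0.561% and 7.17%), against 1.1% and 3.47%. Of the shorter regions, 20 were called for both marks, 40.8% of those of H3K9cr and 31.3% of those of H3K9ac. The same overlap was not counted over all tested regions, so these shares cannot be called particular to the 892. Shorter H3K9ac was called in 48 of the 506 regions without an annotated start (9.49%) and 16 of the 386 with one (4.15%), whereas shorter H3K9cr was called in 5.14% and 5.96%. The counts depended on single libraries. Without 1 of the 8 H3K9cr libraries, 3 to 13 were longer and 20 to 38 shorter in H3K9cr. Shorter H3K9ac was called in 8 regions without WT control H3K9ac replicate 2 and in 24 without ACSS2-/- control H3K9ac replicate 2, where the comparison rests on 1 genotype, and in 101 without ACSS2-/- UUO H3K9ac replicate 2. It was called in 358 without centring and in 21 with a term for peaks on chromosome Y, which were missing from 3 of the 4 UUO and 0 of the 2 control H3K9ac lists. For H3K9cr, 1 was longer and 46 shorter without centring, and 24 and 39 after quantile normalization.

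The regions longer after UUO with the lowest p-values included those of 2 RUNX transcription factors. At the internal start of Runx1 (chr16:92695101-92700279), the H3K9cr length was 1179 and 1192 bp in WT control and 1249 and 1829 bp in ACSS2-/- control, and 4801 and 3800 bp in WT UUO and 4078 and 2612 bp in ACSS2-/- UUO kidneys. H3K9ac was 1193 and 2016 bp in the control libraries, and 3167 and 3152 bp in WT UUO and 2254 and 4635 bp in ACSS2-/- UUO. Every UUO library was above every control library of its mark. The log2 differences were 1.63 ± 0.18 for H3K9cr (adjusted p = 0.00109) and 1.60 ± 0.23 for H3K9ac (adjusted p = 0.00428), the latter with an adjusted p of 0.145 without WT control H3K9ac replicate 2. In a region inside Runx2 (chr17:44733960-44736949), known from bone formation, the differences were 0.72 ± 0.13 and 1.00 ± 0.16 (adjusted p = 0.00994 and 0.00636). Its H3K9cr was 1669 to 2247 bp in the 4 control and 2599 to 2857 bp in the 4 UUO libraries, whereas its uncentred H3K9ac of 1294 and 2345 bp in control and 1869 to 2829 bp in UUO libraries overlapped. Both calls of Runx2 were lost without centring (adjusted p = 0.0903 and 0.104), that of H3K9cr without WT UUO H3K9cr replicate 2 (0.0506) and that of H3K9ac without WT control H3K9ac replicate 2 (0.342). Sbno2 (chr10:80069466-80077656) was longer in H3K9cr by 0.99 ± 0.17 (adjusted p = 0.00772, and 0.0719 without centring). In H3K9ac, the internal starts of Nek6, a kinase of mitosis, were longer by 1.27 ± 0.29 (adjusted p = 0.0350), a call lost under 12 of 21 alternatives. The remaining 2 H3K9ac regions, named after their values were seen, lay inside Zfp800 and Nfkbiz, with differences of 0.84 ± 0.15 and 0.72 ± 0.17. The largest difference of H3K9cr, also named after its value was seen, was 1.92 ± 0.49 at 4933433H22Rik (adjusted p = 0.0464).

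Among the shorter regions, the change of H3K9ac was largest at Rab5c, which encodes a GTPase of early endosomes. In this region (chr11:100718929-100733463), H3K9cr was 8355 and 8740 bp in WT control, 12701 and 12620 bp in ACSS2-/- control, 3683 and 2895 bp in WT UUO and 4317 and 3408 bp in ACSS2-/- UUO kidneys. H3K9ac was 5460 and 8009 bp in the control libraries, 331 and 354 bp in WT UUO and 807 and 1437 bp in ACSS2-/- UUO. Its log2 differences were -1.40 ± 0.12 (adjusted p = 0.000427) and -2.88 ± 0.15 (adjusted p = 5.88e-06). At the internal start of Vav3 (chr3:109571045-109580271), H3K9cr was 7092 to 8126 bp in the 4 control and 1131 to 2735 bp in the 4 UUO libraries. Its H3K9ac was 3990 and 3947 bp against 464 to 610 bp, and the differences were -2.01 ± 0.23 and -2.32 ± 0.28 (adjusted p = 0.00109 and 0.00205). Ccser2 (chr14:36916434-36921537) differed by -1.20 ± 0.14 in H3K9cr and -0.80 ± 0.17 in H3K9ac (adjusted p = 0.00109 and 0.0246). The regions of Rab5c and Ezr, and those of Lmo7, Zfp821, Ncoa3, Esrrb and the CpG-poor start of Slc4a4 described below, held no bp covered in all 14 libraries, so that peaks at different places within the merged region enter their lengths. Ezr (chr17:6750861-6759061), which encodes ezrin, a link between microvillus membrane and actin, differed in H3K9ac by -1.90 ± 0.22 (adjusted p = 0.00160, and 0.346 without ACSS2-/- control H3K9ac replicate 2).

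Of the 12 gene lists, 27 regions belonged to 10. The leukocyte and injured tubule lists had none, but held only 23 and 22 distal regions of any kind, at 7 of 19 and 5 of 12 genes, where 1.85% of all distal regions had a peak in all 14 libraries. Of these 27, 5 were shorter in H3K9cr after UUO and 3 in H3K9ac, and none longer, where the background over all tested regions was 3.52% and 3.47% shorter and 1.61% and 1.1% longer. Kidney transcription factors had 9 regions, 4 of them shorter in H3K9cr, 1 of these also in H3K9ac. The first, inside Hnf4a, the nuclear receptor of proximal tubule and liver, was chr2:163547196-163562962, which begins 41 bp after an internal start of the gene. Its H3K9cr length was 9083 and 4834 bp in WT control, 12109 and 8678 bp in ACSS2-/- control, 5459 and 1076 bp in WT UUO and 2820 and 2002 bp in ACSS2-/- UUO kidneys, so that WT UUO replicate 1 lay within the control range. The log2 difference was -1.63 ± 0.38 (adjusted p = 0.0344), and that of H3K9ac -1.67 ± 0.47 (adjusted p = 0.0704). Ppargc1a, a coactivator of mitochondrial genes, differed in H3K9cr by -1.03 ± 0.14 (adjusted p = 0.00306) with 5469 to 6798 bp in the control and 2336 to 2940 bp in the UUO libraries. Its H3K9ac difference was -0.26 ± 0.18 (adjusted p = 0.434). Esrrb, an oestrogen-related receptor, differed in H3K9cr by -1.63 ± 0.30 (adjusted p = 0.0127). The Ppara region differed in H3K9cr by -0.79 ± 0.20 and in H3K9ac by -1.30 ± 0.25 (adjusted p = 0.0479 and 0.0155). The other 5, of Ets1 (3 regions), Nr3c1 and Sim1, did not pass the test.

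For the tubule segments, the region that holds the CpG-poor start of Slc4a4 (chr5:89027934-89037943) had 6551 to 7858 bp of H3K9cr in the 4 control libraries. It had 1182 to 2986 bp in the 4 UUO libraries, a log2 difference of -1.56 ± 0.26 (adjusted p = 0.00716). Its H3K9ac was 8803 and 9971 bp against 1058 to 3544 bp (-1.46 ± 0.32, adjusted p = 0.0276). The start, at base 89027966, lies at the left edge of this region. Nearly all of the region therefore lies downstream of it, inside the gene, and these lengths do not describe the start alone. The region of the CpG-rich start (chr5:88886042-88888832) had 1790 to 2061 bp of H3K9cr in control and 1478 to 2143 bp in UUO libraries, and differences of 0.10 ± 0.27 and 0.02 ± 0.34. In bulk tissue, fewer cells of a type and a shorter mark per cell cannot be told apart. Slc7a7, a transporter of cationic amino acids, had 2 regions with H3K9cr differences of -0.44 ± 0.43 and 0.07 ± 0.25, neither of which passed the test. Over the 4 regions of the proximal tubule list, all of Slc4a4 and Slc7a7, the median difference was -1.17 in H3K9ac and -0.19 in H3K9cr. In each mark only 1 of the 4 passed the test, the Slc4a4 region above. Of the 3 regions of the distal nephron list, 1 inside Scnn1a, the alpha subunit of the epithelial sodium channel, differed in H3K9ac by -1.40 ± 0.28 (adjusted p = 0.0187), with 5397 and 6436 bp in control and 1162 to 2462 bp in UUO libraries. The regions of Synpo, Erg, Meis1, Pdgfra, Fos, Fosb, Nfkbia, Smad7, Cdyl and Actb, 1 of each, did not pass the test for UUO. For the receptor of IL-1, the internal start of Il1r1 (chr1:40265948-40268043) had 1097 to 1959 bp of H3K9cr in control and 1258 to 1882 bp in UUO libraries, and 1023 and 1031 bp against 907 to 1243 bp of H3K9ac. Its log2 differences of 0.37 ± 0.23 and 0.68 ± 0.28 did not pass the test (adjusted p = 0.437 and 0.194).

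**Figure D4:**
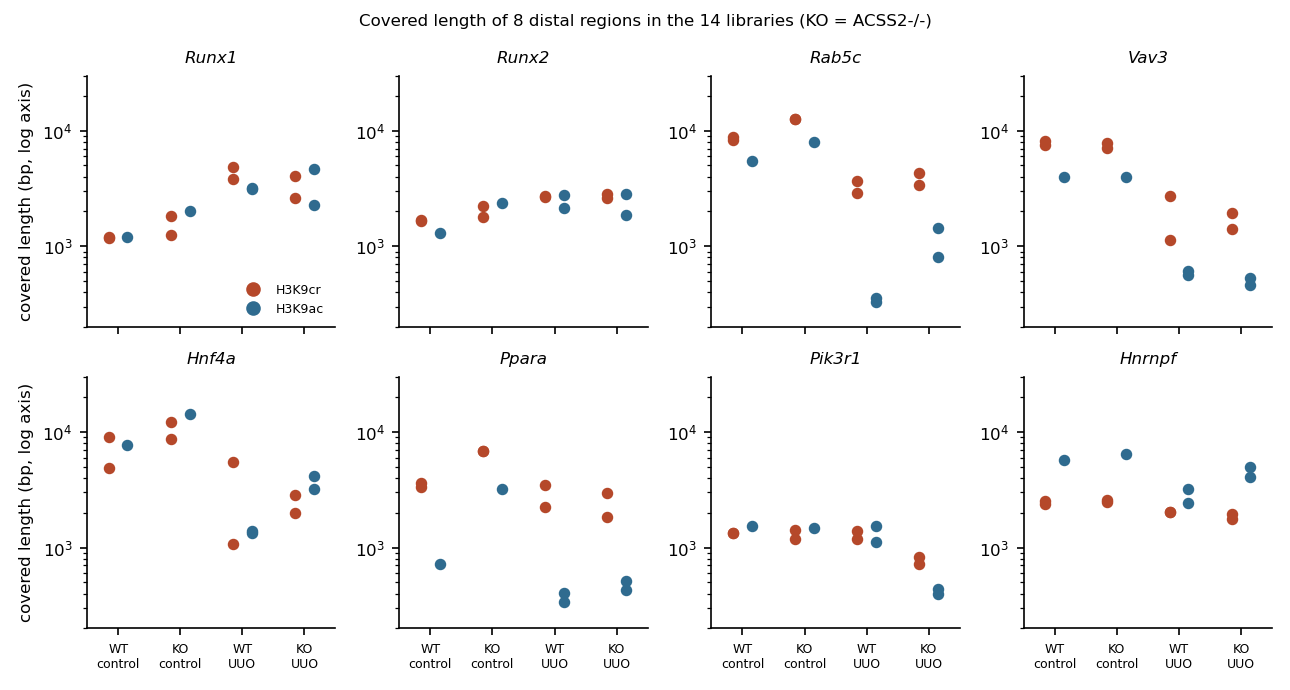
Covered length in bp (y axis, log scale) of 8 distal regions, named by their host gene, in the 14 libraries, with H3K9cr in red and H3K9ac in blue and KO for ACSS2-/-. Each point is a library. The Runx1 region is longer and the Rab5c and Vav3 regions shorter in UUO, the Runx2 region is longer in H3K9cr with overlapping H3K9ac values before centring, the Ppara region is shorter in H3K9ac (mean 932 bp) than in H3K9cr (3911 bp), and the Hnrnpf region is longer in H3K9ac.

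The effect of UUO on H3K9cr was also compared with that on H3K9ac. The difference passed the test at 1 region in the direction of a larger loss of H3K9ac, against a background of 0.0192%, and at 0 in the other, against 0% of all tested regions. At an unadjusted p under 0.05, limma had 88 and 19 of the 892 (9.87% and 2.13%), against 5.26% and 3.55% of all tested regions. The region was that of Rab5c, with a difference of 1.48 (adjusted p = 0.0377), and its call was lost under 15 of 21 alternatives, among them leaving out any H3K9cr library.

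For the loss of ACSS2, kidneys were compared within UUO for both marks and within control for H3K9cr. In UUO, 0 of the 892 regions were longer and 0 shorter in H3K9cr in ACSS2-/- than in WT kidneys, against backgrounds of 0% and 0.00958%. At an unadjusted p under 0.05, limma had 22 longer and 45 shorter (2.47% and 5.04%), against 2.28% and 3.25% of all tested regions. The median SE of a difference was 0.27 on the log2 scale with 2 libraries against 2, and the quartiles of the differences were -0.25 and 0.15. Centring removes a shift shared by all regions, so these tests cannot show one. Before centring, the median H3K9cr length over the 892 regions was 1900 and 1669 bp in the WT UUO libraries. It was 1793 and 1507.5 bp in the ACSS2-/- UUO libraries. Without centring the median difference over all tested regions was -0.10, and 0 of the 892 were called in either direction. In control kidneys, 0 were longer and 0 shorter in H3K9cr, against 0% and 0%, with 44 and 24 at an unadjusted p under 0.05 in limma (4.93% and 2.69%, against 3.88% and 2.03% of all tested regions). H3K9ac in control kidneys had 1 library per genotype and was not tested. In UUO, H3K9ac was longer in ACSS2-/- kidneys in 5 regions and shorter in 2 (0.561% and 0.224%), against backgrounds of 0.307% and 0.0383%, and 2 were longer and 2 shorter after quantile normalization. The counts ranged from 2 to 14 longer and 1 to 20 shorter when 1 library was left out, with 14 longer and 1 shorter without WT UUO H3K9ac replicate 2 and 8 longer and 20 shorter without ACSS2-/- UUO H3K9ac replicate 2. The median covered length over the 892 regions was 1039 and 1203.5 bp in the WT UUO and 1110 and 1670 bp in the ACSS2-/- UUO H3K9ac libraries before centring.

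The regions longer in H3K9ac in ACSS2-/- UUO kidneys were those of Rab5c (1.41 ± 0.17, adjusted p = 0.0130), Lmo7, Zfp821, Tbc1d14 (1.80 ± 0.32) and Gm30149 (1.13 ± 0.19), the last 2 named after their values were seen. At Lmo7 (chr14:101839372-101844928), H3K9ac was 718 and 941 bp in WT UUO and 2208 and 3952 bp in ACSS2-/- UUO, with 4809 and 4765 bp in the control libraries, and the difference was 1.60 ± 0.19 (adjusted p = 0.0130). H3K9cr was 3575 and 2518 bp in WT UUO and 2801 and 2985 bp in ACSS2-/- UUO, a difference of 0.04. At the 3 starts of Zfp821, a zinc finger protein, H3K9ac was 421 and 474 bp in WT UUO and 1575 and 1621 bp in ACSS2-/- UUO (1.59 ± 0.25, adjusted p = 0.0263). The shorter regions lay inside Pik3r1, the regulatory subunit of phosphoinositide 3-kinase, and Ncoa3, a coactivator of nuclear receptors. At Pik3r1 (chr13:101762917-101764564), H3K9ac was 1522 and 1112 bp in WT UUO and 393 and 439 bp in ACSS2-/- UUO, a difference of -1.89 ± 0.26 (adjusted p = 0.0184). Its H3K9cr was 1397 and 1182 bp against 721 and 833 bp, a difference of -0.63 that did not pass the test. Ncoa3 (chr2:166029151-166032316) differed by -1.70 ± 0.26 (adjusted p = 0.0263). The calls of Zfp821 and Ncoa3 were lost when 1 of several libraries was left out, with adjusted p-values of up to 0.129 for Zfp821 and 0.0575 for Ncoa3. For Rab5c, Lmo7 and Pik3r1 the call held when any 1 library was left out. Those of Rab5c and Lmo7 were lost when only the longest peak of a region was used (adjusted p = 0.595 and 0.0911).

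**Figure D5:**
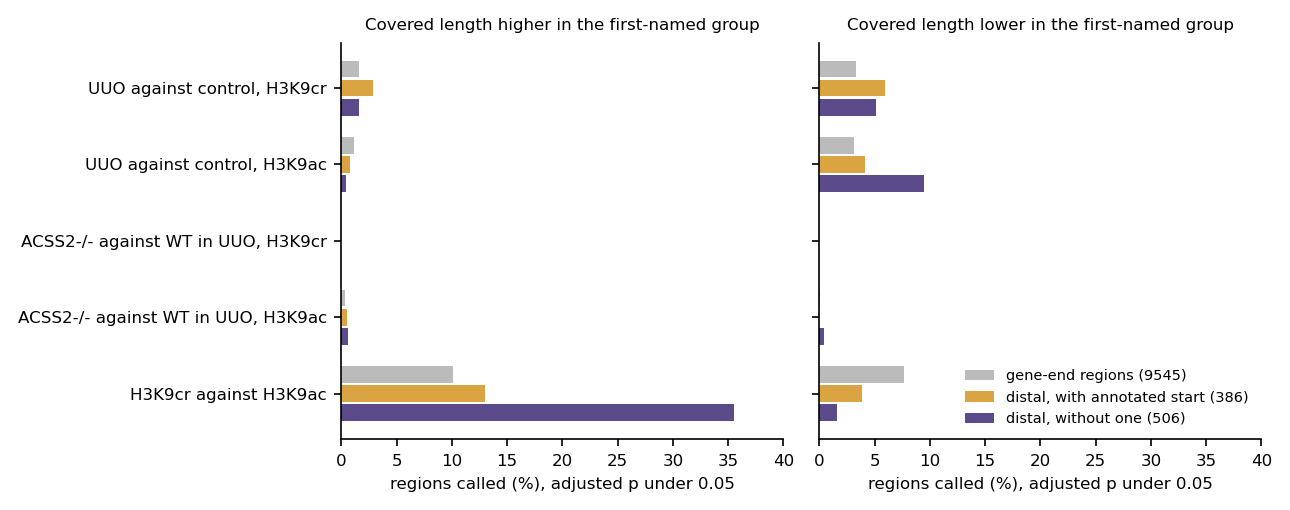
Percent of regions called longer (left) or shorter (right) in the first-named group of each comparison (limma, adjusted p under 0.05), for 9545 gene-end regions, 386 distal regions with an annotated internal start and 506 without one. The largest share is that of H3K9cr longer than H3K9ac in the distal regions without an annotated start (35.6%), against 10.1% of gene-end regions.

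The 10 regions with the largest mean cover were set apart from the rest by length alone. The longest lay between genes near Lncppara (chr15:85659978-85691396) with a mean of 20009 bp, a common core of 8566 bp and 14031 to 25069 bp in every library but ACSS2-/- control H3K9ac replicate 2, which had 28195 bp. Next came regions inside Shb, an adaptor of receptor tyrosine kinases, and Aopep, an aminopeptidase, with means of 15749 and 15731 bp. The Shb region differed in H3K9ac after UUO by -1.47 ± 0.27 (adjusted p = 0.0127), with 16327 and 26028 bp in control and 3521 to 12419 bp in UUO libraries, whereas H3K9cr was 13105 to 26037 bp in the 8 libraries. Gm31718, a long non-coding RNA gene, had 10814 to 17880 bp of H3K9cr and 1536 to 10997 bp of H3K9ac (1.49 ± 0.16 between the marks, adjusted p = 0.000221). The others lay inside H6pd, an enzyme of the endoplasmic reticulum, Myh9, the heavy chain of non-muscle myosin, with 2 regions that are 705 bp apart, Tns1 and Bcar1, proteins of focal adhesions, and Rbm47, which binds RNA. Only 1 of these 10 besides Shb passed the test for UUO, Tns1 in H3K9ac, with -2.18 ± 0.55 (adjusted p = 0.0497).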

How the data were processed

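Mouse kidney was profiled by ChIP-seq for H3K9cr (8 libraries) and H3K9ac (6). The authors removed adapter, poly-N and low-quality reads, aligned with Bowtie2, removed organelle reads, low mapping qualities and PCR duplicates, and called peaks per library with MACS2 (mm10, per the submitters' processing notes). Versions and the MACS2 control are not given in the sources used here. The deposited files hold peak positions in bp with no count or score, so the read depth and its precision are unknown.

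Peaks were merged on an overlap of 1 bp or more. Gene ends and start windows were from RefSeq (GRCm38.p6), matched by symbol. The host was the shortest protein-coding gene spanning a region, otherwise the shortest other gene. Outside genes the nearest gene end gave the name. Covered length was tested with limma 3.58.1 (R 4.3.3) with trend, 8 group means, 6 residual degrees of freedom and Benjamini-Hochberg adjustment at 0.05. The script was tested on simulated data. Python 3.11.15, numpy 2.4.6, pandas 2.3.3 and matplotlib 3.10.9 were used. Groups came from the sample titles.

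Named were the 10 longest regions, up to 3 per comparison and direction with the lowest adjusted p and no overlap of groups in centred log2 length (lengths in bp can overlap), those of the gene lists, and 3 on each side of the rule. Members and lists were chosen with earlier results of these data known. Alternatives changed the gene-end distance, annotation, peaks, centring, trend, pairing and libraries. The pairing by peak names, a term for chromosome Y peaks, the overlap of start windows and the restriction to a common core were chosen after seeing the data.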

Additional observations from a re-analysis of the deposited data

Results flagged for a closer look

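The effect of UUO differed between the marks at the distal region of Rab5c (chr11:100718929-100733463), by a test of the difference itself in limma. The log2 difference of covered length between UUO and control was -1.40 for H3K9cr and -2.88 for H3K9ac, and the effect on H3K9cr minus that on H3K9ac was 1.48 (adjusted p = 0.0377). H3K9ac fell from 5460 and 8009 bp in the 2 control libraries to 331, 354, 807 and 1437 bp in the 4 UUO libraries. The call was lost under 15 of 21 alternatives, with a difference of 0.90 (adjusted p = 0.542) without WT control H3K9ac replicate 2 and 0.78 (adjusted p = 0.714) when only the longest peak was used.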

How the results depend on the processing

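The 892 regions became 447 with gene ends extended to 10 kb, 1411 with protein-coding genes alone, 494 with as many of the longest peaks per list as in the smallest list and 305 with the longest 50% of the peaks, and 895 to 1018 with 1 library left out. For UUO, longer H3K9cr (19) became 1 without centring and 8 with the longest peak, and 3 to 24 with 1 library left out, and shorter H3K9cr (49) 20 to 55. Longer H3K9ac (5) became 1 without centring, 8 with quantile normalization, 2 with the longest peak and 3 with the replicate block, and 0 to 8 with 1 library left out. Shorter H3K9ac (64) became 358 without centring, which moved the median of all regions by -0.55, 21 with a chromosome Y term and 42 with a common core alone, and 8 to 101 with 1 library left out. The difference of the UUO effects (1) became 2 with quantile normalization, 0 without centring, with the longest peak, without trend, with the replicate block, with the chromosome Y term and with a common core, and 0 to 10 with 1 library left out. For ACSS2-/- against WT in UUO, longer H3K9cr (0) became 1 with quantile normalization and 0 to 1 with 1 library left out, and shorter H3K9cr (0) became 1 with the chromosome Y term. Longer H3K9ac (5) became 2 with quantile normalization, 3 with the longest peak, 3 with the chromosome Y term and 1 with a common core, and 2 to 14 with 1 library left out. Shorter H3K9ac (2) became 1 without centring, with the longest peak, with the chromosome Y term and with a common core, and 1 to 20 with 1 library left out, so that shorter regions outnumbered longer ones (20 to 8) without ACSS2-/- UUO H3K9ac replicate 2. Longer H3K9cr than H3K9ac (230) became 138 without centring, and the reverse (23) became 11 without centring, 35 with quantile normalization and 14 with the replicate block, and 13 to 22 with 1 library left out. The cause of these changes was not tested. Between libraries of the same replicate number, correlations of deviations ranged from -0.18 to 0.09 over 15 pairs of groups. Most pairs join groups of different genotype or condition, which cannot share a kidney, so the range cannot decide whether libraries are paired. The lowest was between the marks in ACSS2-/- UUO kidneys. There replicate 1 had number 2 in the H3K9ac and 3 in the H3K9cr peak names, and replicate 2 had 3 and 2. The replicate block was run only as an alternative. Of 504 log2 differences of named regions under the alternatives, 444 kept their call, 60 lost it and none changed sign.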
